A study of Rattus norvegicus with 5 samples.

Results

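The 8 genes described here encode growth factor receptors of the brain and a pair of their ligands: Ntrk2 and Ntrk3 (neurotrophin receptors), Nrg1 and Nrg3 (neuregulins), Erbb4 (a neuregulin receptor), Egfr (the epidermal growth factor receptor), and Fgfr1 and Fgfr2 (fibroblast growth factor receptors). They were taken by symbol, wherever a deposited peak or region named the gene in its promoter, upstream, exon, intron, downstream or gene body column. All 8 were found, among 23143 protein-coding genes of the rat reference annotation. They held 119 of 116091 peaks in Astrocytes, 139 of 137579 in Neurons and 141 of 121816 in neural stem cells (NSCs).

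The study mapped N6-methyladenine (6mA), a methylated form of adenine, in rat genomic DNA by immunoprecipitation with an antibody against 6mA and sequencing. Its 5 libraries are 1 immunoprecipitated library each of Astrocytes, Neurons and NSCs, and input libraries (sheared DNA kept back before the antibody step) of Neurons and NSCs. The NSCs are the cell line SCR022, sold as adult rat hippocampal stem cells. For Neurons and Astrocytes the labels state the cell type alone, with no culture method, age or treatment. The series title concerns the methyltransferase N6amt1 and 6mA at Txnrd3 in hippocampal neurogenesis, but no library is labelled with a genetic change.

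Immunoprecipitated libraries held 15767015 reads in Astrocytes, 16095308 in Neurons and 15760246 in NSCs, and 87.94%, 86.55% and 87.47% of them, in that order, mapped uniquely. The Neurons input held 22329441 reads and the NSCs input 27936774. With 1 library per cell type there is no replicate, so the differences below have no test, no p and no spread between samples. All fold values and scores are the authors' own, from their deposited tables. A peak's fold is the ratio of a library to its input (the Astrocytes list is named as over an Astrocytes input, which is not among the samples and was not analysed here), and a region's fold in a comparison list is the ratio of 1 immunoprecipitated library to another. A score is 10 times the negative decimal logarithm of the authors' p, and no list holds a score below 50. DNA libraries carry no marker gene expression, so the cell type labels could not be checked, and no second method measured 6mA at the enriched sites. In bulk DNA, fewer cells with an enriched site and less enrichment per cell cannot be told apart.

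Receptor tyrosine kinases of these families bind a secreted or membrane-tethered ligand, pair up, phosphorylate each other and pass the signal to shared adaptors, the Ras and MAP kinase chain and PI3 kinase. In the hippocampus, the Ntrk2 product TrkB is the receptor for brain-derived neurotrophic factor, ErbB4 is known for its role in interneurons, and epidermal and fibroblast growth factors are the standard mitogens of cultured neural stem cells. Adenine methylation is an established mark in bacteria, while its abundance and role in mammalian DNA are debated.

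No peak and no comparison region at the 8 genes lay in a promoter, an upstream flank, a downstream flank or a CpG island. Of the 399 peaks, 397 were intronic and 2 exonic, and of the 218 comparison regions 216 were intronic and 2 exonic. None named another gene. These classes were not counted over all peaks or over other long genes, so this placement cannot be called particular to the 8 genes. Whether a peak without a gene name covers the promoter sequences below was not tested. RefSeq promoters of the GRCr8 assembly were held for 4 of the 8 genes, Fgfr2, Erbb4, Nrg3 and Egfr. The 250 bases before the start of Erbb4 (chr9:78045607-78045856, GRCr8, minus strand) and of Nrg3 (chr16:15374108-15374357, GRCr8, minus strand) follow 5′ to 3′, with each CG in capitals, because these genes held the most peaks.
Erbb4: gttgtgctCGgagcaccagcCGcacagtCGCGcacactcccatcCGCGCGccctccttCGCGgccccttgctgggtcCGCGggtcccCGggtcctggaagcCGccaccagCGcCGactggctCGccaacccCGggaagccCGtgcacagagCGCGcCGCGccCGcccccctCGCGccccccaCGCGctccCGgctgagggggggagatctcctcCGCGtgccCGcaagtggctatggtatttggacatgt
Nrg3: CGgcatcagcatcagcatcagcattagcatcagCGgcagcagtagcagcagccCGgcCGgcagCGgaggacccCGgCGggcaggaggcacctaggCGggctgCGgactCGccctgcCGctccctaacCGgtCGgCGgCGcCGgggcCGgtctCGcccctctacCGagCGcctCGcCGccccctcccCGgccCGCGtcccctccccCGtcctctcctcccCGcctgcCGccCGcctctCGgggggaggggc

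Both promoters are rich in CG: 31 in Erbb4 and 30 in Nrg3, against a median of 8 in 21842 protein-coding promoters. CG was searched as these 2 letters, which read the same on both strands, and 93.0% of those promoters hold at least 1. At least 31 were held by 5.89% of promoters and at least 30 by 6.75%. Fgfr2 had 37, a number reached by 2.45% of promoters, while Egfr had 11, reached by 44.0%. Adenine and thymine together made up 26.4% of the Erbb4 window and 22.8% of the Nrg3 window, against a median of 46.0%. The deposited files name no genome build, so GRCr8 positions were not laid over the authors' peaks, and all other coordinates here are as the files give them. The nearest listed sign of a CpG island was an Erbb4 peak of Astrocytes at chr9:76176772-76177100, annotated as the shore of the island chr9:76177429-76179203. That peak ended 329 bases before the island and had a fold of 9.37 and a score of 59.86. It was the 1 shore peak among the 399.

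Peaks over input were listed for 7 of the 8 genes in Astrocytes, 8 in Neurons and 7 in NSCs. Over all 23143 genes the share with a peak was 39.5% in Astrocytes, 42.3% in Neurons and 39.3% in NSCs. These 8 genes all exceed 50 kb, and among the 5114 genes of at least that length the share was 80.8%, 82.9% and 80.7% in the same order, so having a peak does not set the 8 apart. Nrg3 and Erbb4 alone held 80.7% of the 8 genes' peaks in Astrocytes, 79.9% in Neurons and 74.5% in NSCs. The median fold of the 8 genes' peaks was 11.4 in Astrocytes, 12.5 in Neurons and 12.1 in NSCs, against 12.3, 12.1 and 12.2 over all peaks of the same lists.

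**Figure D1:**
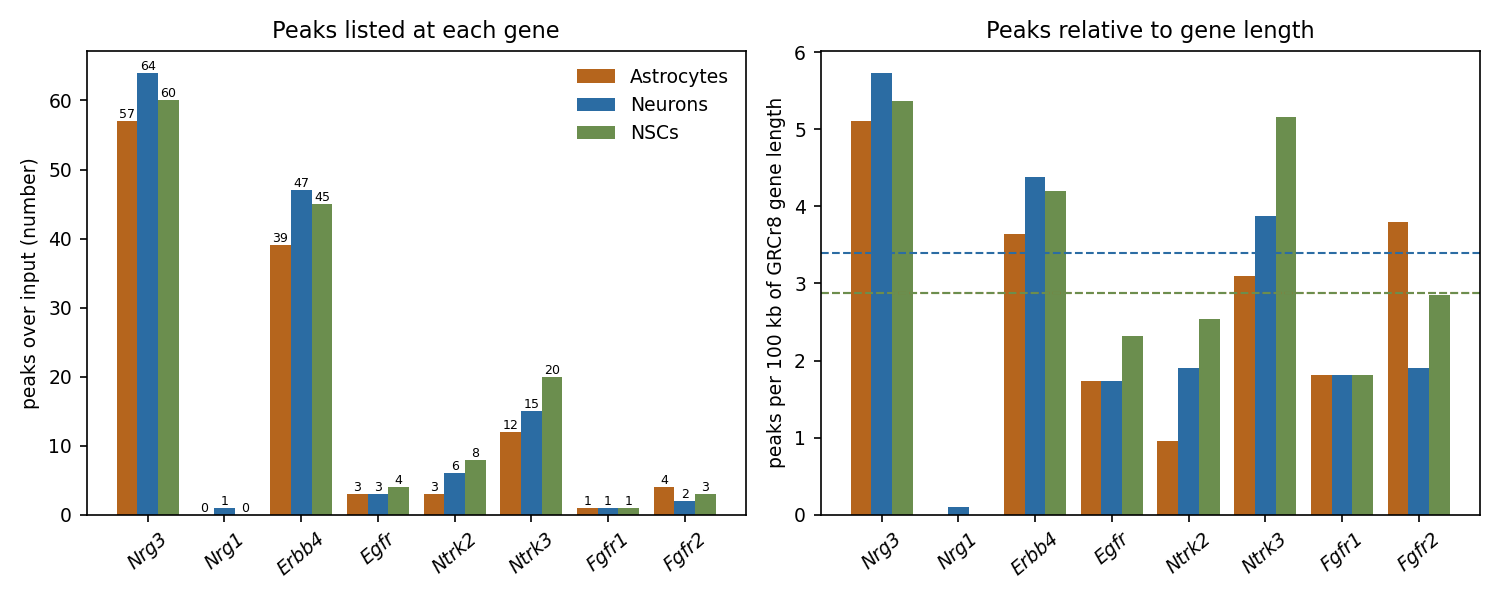
Number of peaks over input named for each gene (left) and the same number per 100 kb of GRCr8 gene length (right), for Astrocytes, Neurons and NSCs, 1 library each. Dashed lines give the median of 5114 genes of at least 50 kb, 3.40 in Neurons (upper line) and 2.87 and 2.88 in Astrocytes and NSCs (lower line); Nrg3 and Erbb4 lie above these lines in the 3 libraries and Nrg1 lies far below.

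Among the ligands, Nrg3, an ErbB4 ligand found mainly in the nervous system, held the most peaks of the 8 genes. It had 57 peaks in Astrocytes, 64 in Neurons and 60 in NSCs, which placed it at rank 11, 14 and 13 of 23143 genes by number. Relative to its 1120 kb, that made 5.10, 5.73 and 5.37 peaks per 100 kb in the same order, against medians of 2.87, 3.40 and 2.88 over genes of at least 50 kb. These densities lie above the upper quartile of those genes, which was 4.82 in Astrocytes, 5.54 in Neurons and 4.88 in NSCs. By density Nrg3 stood lower, at rank 1134 in Astrocytes, 1191 in Neurons and 1034 in NSCs of 5114 genes, so its high rank by number goes with its length. Over the 1200 kb that the deposited annotation allows it, the densities would be 4.74 in Astrocytes, 5.32 in Neurons and 4.99 in NSCs. These are below the upper quartile in Astrocytes and Neurons, although the quartiles use GRCr8 lengths for every gene.

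The strongest Nrg3 peak lay in an intron at chr16:16178792-16179587. Its fold was 133.90 in Astrocytes, 104.58 in Neurons and 32.86 in NSCs. In the authors' deposited comparison tables it was higher in Neurons than in NSCs by 4.19-fold and higher in Astrocytes than in NSCs by 5.08-fold, so the NSC library was the low one at this intronic site. A second intronic site, chr16:16358927-16360064, had folds of 34.46 in Astrocytes, 37.62 in Neurons and 75.13 in NSCs. There the deposited tables list NSCs as higher, by 4.83-fold over Neurons and 4.58-fold over Astrocytes. Another, chr16:15960557-15961308, had folds of 52.64 in Astrocytes, 57.81 in Neurons and 47.37 in NSCs, and no comparison list names it. Strongly enriched Nrg3 introns thus included sites listed as different between cell types and a site that was not listed.

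Nrg3 peaks were spread along the gene, with a median gap of 13.2 kb between neighbouring peaks in Astrocytes, 11.7 kb in Neurons and 14.5 kb in NSCs. The longest stretch without a peak was 177 kb in Astrocytes, chr16:16663880-16840691, against 78.1 kb in Neurons and 69.7 kb in NSCs. Neurons and NSCs held peaks inside that stretch. The 1 exonic Nrg3 peak was found in NSCs at chr16:15763751-15764080, with a fold of 8.62 and a score of 51.35, close to the lowest score listed. It appeared in no comparison list.

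**Figure D2:**
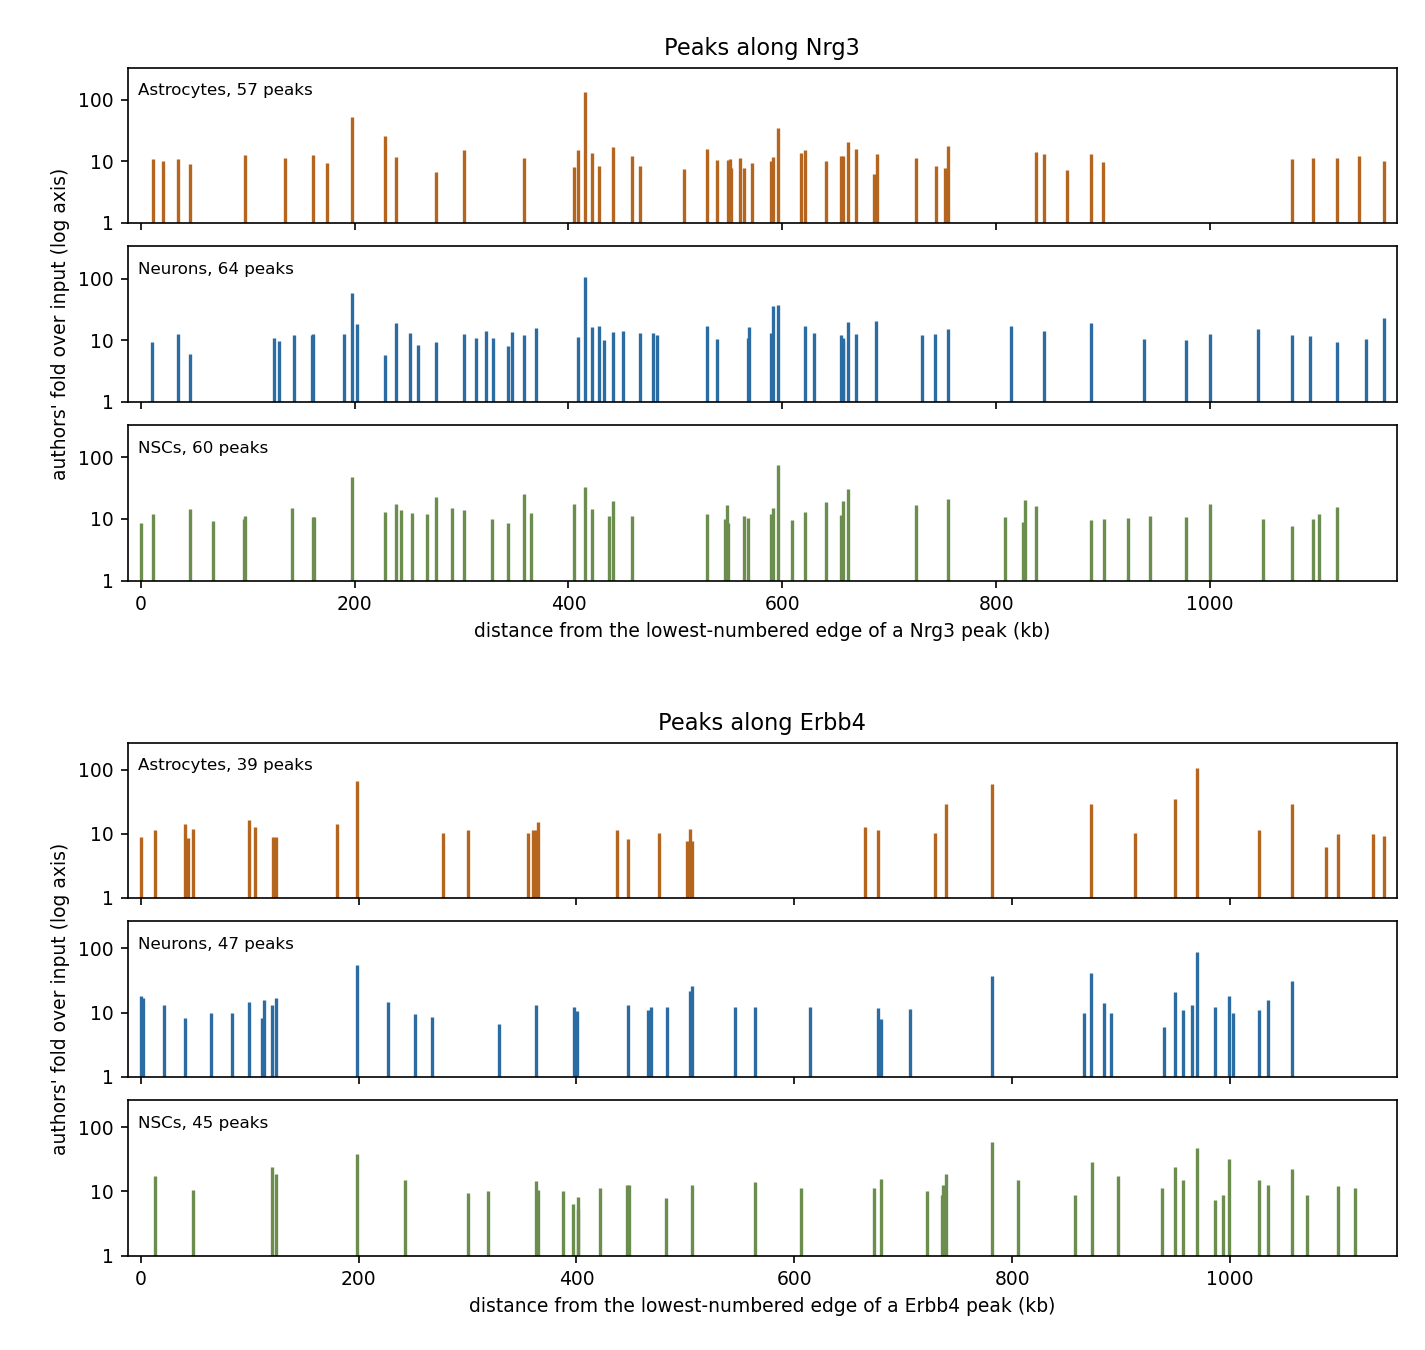
Position of each peak along Nrg3 and Erbb4, in kb from the lowest-numbered edge of any peak of that gene, against the authors' fold over input on a log axis, for Astrocytes, Neurons and NSCs from top to bottom. The peak of fold 133.90 in Astrocytes left of the middle of Nrg3 is low in NSCs, at 32.86, and Astrocytes show the 177 kb stretch of Nrg3 without a peak.

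Nrg1, the founding neuregulin and a ligand of ErbB3 and ErbB4, had 1 peak in Neurons and 0 in Astrocytes and in NSCs. The Neurons peak was intronic, at chr16:64039717-64040075, with a fold of 10.09 and a score of 62.95. The same interval was higher in Neurons than in NSCs by 11.10-fold in the deposited table, with a score of 59.95, and no other list names Nrg1. Its 0.0949 peaks per 100 kb in Neurons, over a GRCr8 length of 1050 kb, were below the lower quartile of 1.39 for genes of at least 50 kb. The deposited annotation, however, gives Nrg1 at most 108 kb, the distance between the nearest regions on either side that carry no gene name. Between Wrn and Fut10, which lie on either side of Nrg1, 2 peaks in Astrocytes, 3 in Neurons and 3 in NSCs named other genes. In the same gap, 85 peaks in Astrocytes, 117 in Neurons and 76 in NSCs carried no gene name. The largest fold among them was 103.07 in Astrocytes, 81.61 in Neurons and 56.73 in NSCs. A low count for Nrg1 cannot be told apart from a short gene model in these files.

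Peaks without a gene name also surround the other genes, and over the whole lists they made up 61.2% of peaks in Astrocytes, 61.4% in Neurons and 62.2% in NSCs. Ntrk2 can span at most 148 kb in the deposited annotation against 315 kb in GRCr8, and Ntrk3 297 kb against 387 kb. For Erbb4, Nrg3, Egfr, Fgfr1 and Fgfr2, the largest extent the files allow exceeded the GRCr8 length (156 kb against 55.2 kb for Fgfr1), and no region without a gene name lay between the first and last region of any of the 8 genes.

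Among the ErbB receptors, Erbb4 had 39 peaks in Astrocytes, 47 in Neurons and 45 in NSCs. Per 100 kb of its 1070 kb, this was 3.64 in Astrocytes, 4.38 in Neurons and 4.20 in NSCs, above the medians for genes of at least 50 kb and below their upper quartiles. The strongest peak, intronic at chr9:76005403-76006057, had a fold of 105.61 in Astrocytes, 86.92 in Neurons and 47.15 in NSCs. No comparison list names that interval. A further intronic site at chr9:75233895-75235088 had folds of 66.17 in Astrocytes, 55.53 in Neurons and 37.61 in NSCs, and was higher in Neurons than in NSCs by 3.88-fold in the deposited table. At chr9:75817008-75817732 the folds were 59.00 in Astrocytes, 36.78 in Neurons and 57.67 in NSCs, again with no comparison region. At the first and last of these sites the folds over input stood apart while no difference between the libraries was listed. Astrocytes again had the longest stretch without an Erbb4 peak, 158 kb at chr9:75542003-75700446, against 84.1 kb in Neurons and 74.1 kb in NSCs. Astrocytes also had the fewest peaks at Nrg3 and at Erbb4. At Ntrk3 the longest stretch was 79.8 kb in Astrocytes, 34.2 kb in Neurons and 31.3 kb in NSCs. Ntrk2 went the other way, with 24.7 kb in Astrocytes against 76.9 kb in Neurons and 69.4 kb in NSCs.

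Egfr, the receptor for epidermal growth factor and transforming growth factor alpha, had 3 peaks in Astrocytes, 3 in Neurons and 4 in NSCs. The 1 site found in the 3 cell types, intronic at chr14:99997021-99997497, had a fold of 10.18 in Astrocytes, 19.32 in Neurons and 10.03 in NSCs, and no comparison list names it. The other 7 Egfr peaks were each found in 1 cell type. Egfr densities, 1.74, 1.74 and 2.32 peaks per 100 kb in Astrocytes, Neurons and NSCs, were below the medians of genes of at least 50 kb.

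Among the neurotrophin receptors, Ntrk2 had 3 peaks in Astrocytes, 6 in Neurons and 8 in NSCs. An intronic site at chr17:6212757-6213605 was the strongest in Astrocytes and in NSCs, with a fold of 29.86 in Astrocytes, 22.26 in Neurons and 40.12 in NSCs. A second, at chr17:6238268-6238973, had folds of 24.18, 23.76 and 11.97 in the same order. These were the 2 Ntrk2 sites found in the 3 cell types, and no comparison list names either. Ntrk2 densities of 0.951, 1.90 and 2.54 peaks per 100 kb of GRCr8 length, in Astrocytes, Neurons and NSCs, were below the medians of genes of at least 50 kb. Over the 148 kb that the deposited annotation can hold, they would be 2.03 in Astrocytes, 4.07 in Neurons and 5.42 in NSCs. The values in Neurons and NSCs would then be above the medians of 3.40 and 2.88, but those medians use GRCr8 lengths for every gene.

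Ntrk2 held the 1 exonic site that was listed as different between cell types. At chr17:6118671-6119293 the NSC library had a peak of fold 12.92 and score 126.56, and Astrocytes and Neurons had none. The authors' deposited tables list this exonic interval as higher in NSCs than in Neurons by 9.47-fold, with a score of 83.01, and higher in NSCs than in Astrocytes by 17.27-fold, with a score of 120.45. The files do not say which exon it is. An intronic interval at chr17:6229743-6230452 showed the same order: NSCs were higher by 7.66-fold over Neurons and by 6.79-fold over Astrocytes, and the NSC peak had a fold of 20.06. An intronic interval at chr17:6135466-6135874 went the other way. It was higher in Neurons than in NSCs by 11.10-fold and in Astrocytes than in NSCs by 10.63-fold, although Astrocytes had no peak over input there.

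Ntrk3, which encodes the receptor TrkC, had 12 peaks in Astrocytes, 15 in Neurons and 20 in NSCs. Per 100 kb of its 387 kb these were 3.10, 3.87 and 5.16, so the NSC value lay above the upper quartile of genes of at least 50 kb, 4.88, and the other two lay between the median and the upper quartile. The strongest site, intronic at chr1:140049719-140050945, had a fold of 56.73 in Astrocytes, 36.78 in Neurons and 31.91 in NSCs, with no comparison region. At chr1:140156506-140157042 the folds were 47.23 in Astrocytes, 29.07 in Neurons and 18.46 in NSCs, and the deposited table lists Neurons as higher than NSCs by 4.74-fold. Ntrk3 counts were lowest in Astrocytes and highest in NSCs, as were those of Ntrk2. With a score of at least 100 this order did not hold for Ntrk3, with 6 peaks in Astrocytes, 8 in Neurons and 7 in NSCs. Ntrk2 then had 2, 2 and 5 in the same order. With 1 library each, the error of these counts is unknown.

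**Figure D3:**
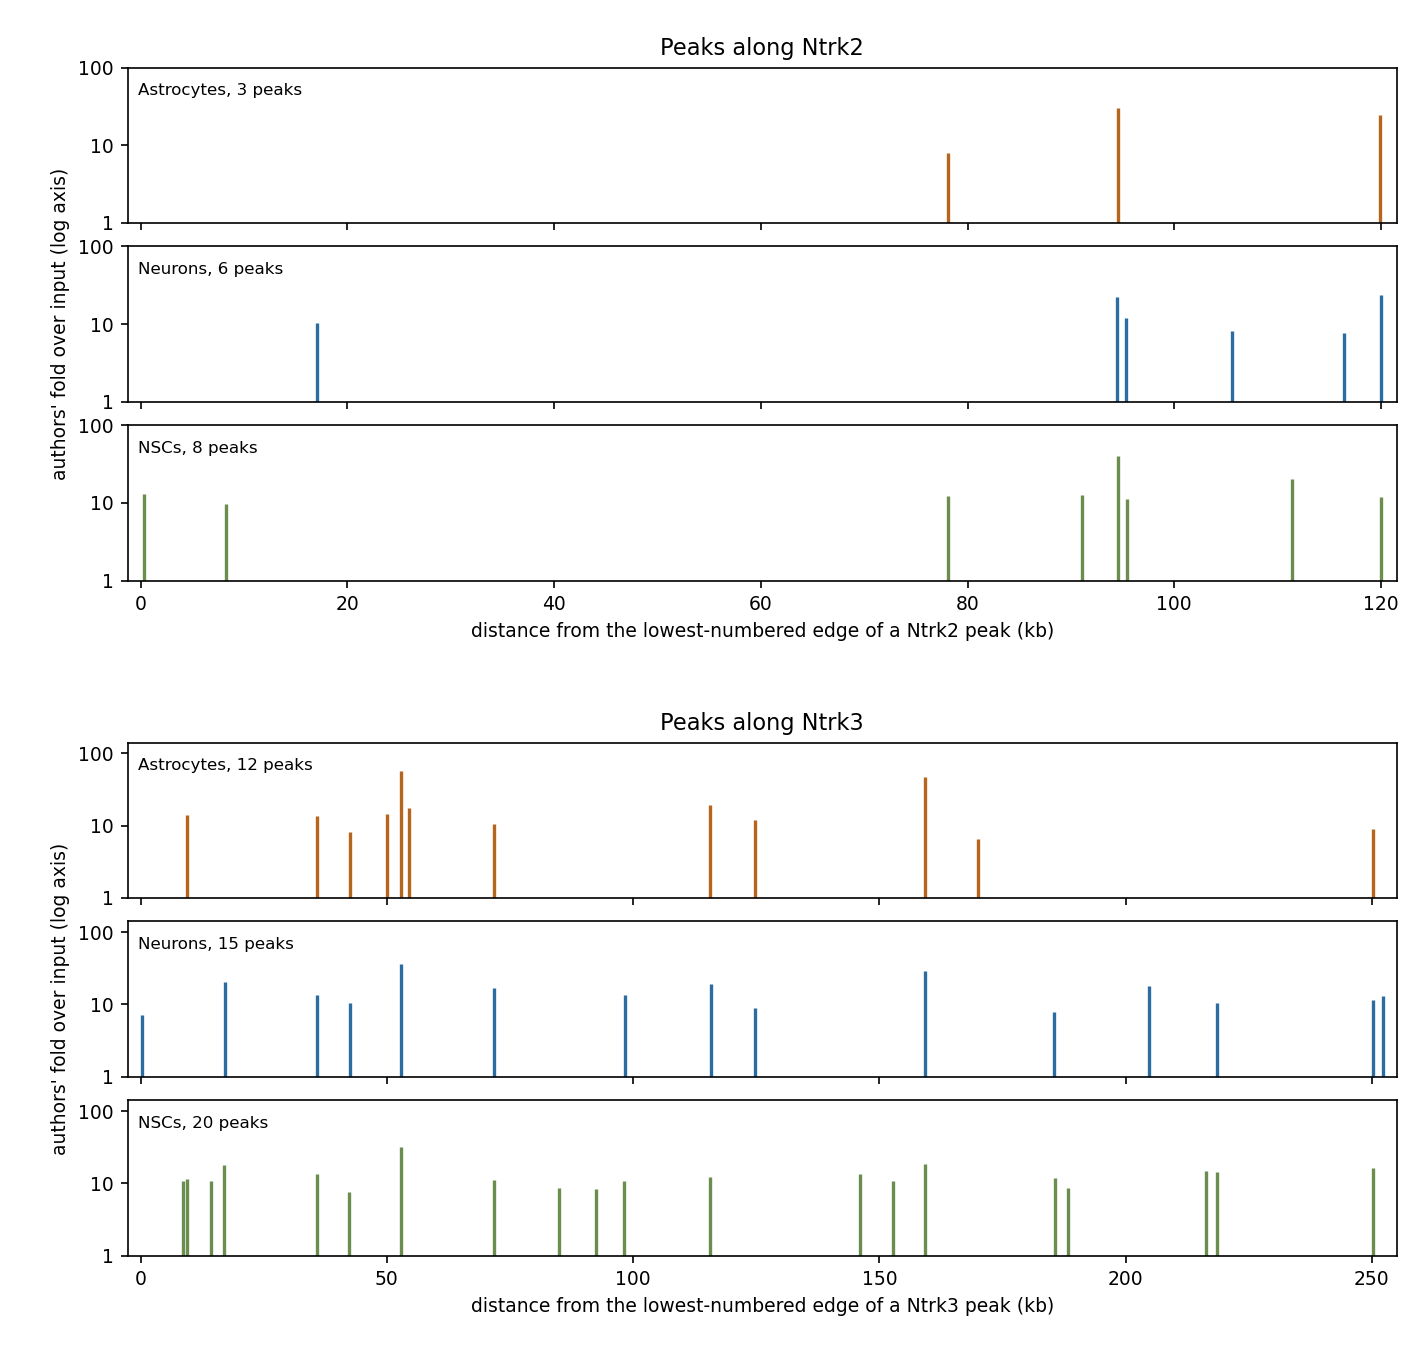
Position of each peak along the neurotrophin receptor genes Ntrk2 and Ntrk3, in kb from the lowest-numbered edge of any peak of that gene, against the authors' fold over input on a log axis, for Astrocytes, Neurons and NSCs from top to bottom. The leftmost Ntrk2 peak, in NSCs, is the exonic site, and the tallest Ntrk3 peak recurs in the 3 libraries at folds of 56.73, 36.78 and 31.91.

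Among the fibroblast growth factor receptors, Fgfr1 had 1 peak in each cell type, at 3 different places. The Astrocytes peak was at chr16:71286943-71287234 with a fold of 8.08, the Neurons peak at chr16:71280100-71280524 with a fold of 8.00, and the NSC peak at chr16:71288089-71288598 with a fold of 10.18. Their scores of 53.24, 57.05 and 54.49, in the same order, were close to the minimum of 50. The NSC site was listed as higher in NSCs than in Neurons by 13.15-fold and higher in NSCs than in Astrocytes by 12.06-fold.

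Fgfr2 had 4 peaks in Astrocytes, 2 in Neurons and 3 in NSCs, or 3.80, 1.90 and 2.85 per 100 kb of its 105 kb. The site found in the 3 cell types, intronic at chr1:200613075-200613611, had folds of 12.01 in Astrocytes, 21.14 in Neurons and 20.12 in NSCs, with no comparison region. A second intronic site, chr1:200644084-200644564, had a fold of 11.98 in Astrocytes and 9.54 in NSCs and no peak in Neurons. The deposited tables list it as higher in Astrocytes than in Neurons by 15.79-fold and higher in NSCs than in Neurons by 9.36-fold, so Neurons were low against both others.

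Peaks that overlapped by at least 1 base were merged into 256 locations at the 8 genes. Of these, 47 (18.4%, exact Clopper-Pearson 95% interval 13.8% to 23.7%) were found in the 3 cell types, 49 in 2 and 160 in 1. Over all peaks, 23.9% of 220974 locations were found in the 3 cell types, 20.6% in 2 and 55.6% in 1. Seen from each library, 39.5% of the Astrocytes peaks (30.7% to 48.9%), 33.8% of the Neurons peaks (26.0% to 42.3%) and 33.3% of the NSC peaks (25.6% to 41.8%) overlapped a peak of both other cell types. The shares over all peaks were 45.8%, 38.6% and 43.6% in the same order. The share over all peaks lay above the interval of the 8 genes in NSCs and inside it in Astrocytes and Neurons. These intervals cover counting error only and are no test. They take each peak as independent, although 74.5% of the NSC peaks lay at Nrg3 and Erbb4. The 8 genes' peaks had a median score of 86.7 in Astrocytes, 84.6 in Neurons and 79.2 in NSCs. Over all peaks these medians were 87.0, 88.3 and 86.8. With a score of at least 100 the NSC share at the 8 genes was 38.9%, and whether the lower NSC share goes with lower scores was not tested.

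Nrg3 had 24 of its 110 locations in the 3 cell types, Erbb4 12 of 90, Ntrk3 7 of 27, Ntrk2 2 of 11, Egfr 1 of 8 and Fgfr2 1 of 6, while Fgfr1 and Nrg1 had none. Locations found in 1 cell type alone had a median fold of 10.8, against 13.0 in Astrocytes, 16.9 in Neurons and 15.7 in NSCs at the locations found in the 3. Of those 47 locations, 37 overlapped no region of any comparison list, a share that was not counted over all peaks.

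**Figure D4:**
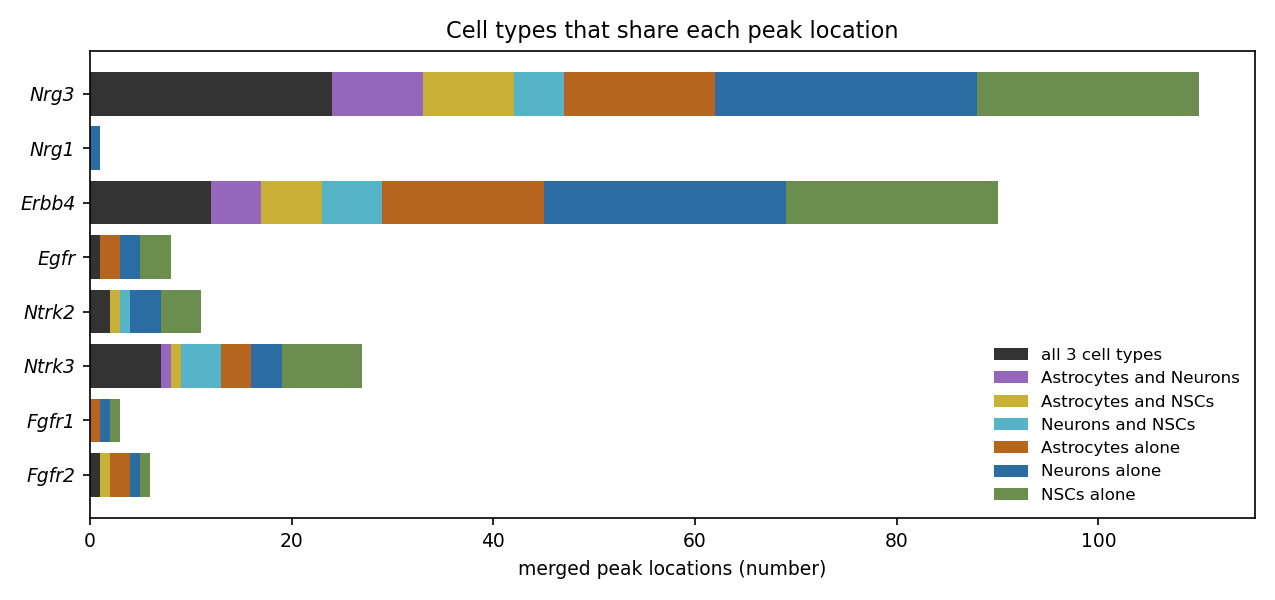
Number of merged peak locations at each gene, split by the cell types whose peak lists contain them. Peaks found in 1 cell type alone make up 160 of the 256 locations, and 47 locations are found in the 3 cell types, 24 of them at Nrg3.

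The authors compared the immunoprecipitated libraries in pairs, so each library is part of 2 comparisons and the lists are not independent. The directions of a pair were also listed differently. Each of the 37 regions higher in Neurons than in NSCs that overlapped a Neurons peak had exactly that peak's interval, against 22 of the 41 regions higher in NSCs than in Neurons that overlapped an NSC peak. The same held for 15 of 15 regions higher in Astrocytes than in NSCs against 13 of 34 the reverse, and for 15 of 15 higher in Astrocytes than in Neurons against 10 of 36 the reverse. Numbers in opposite directions therefore come from intervals made in unlike ways. Some folds in the comparison lists also recur exactly in both directions. Examples are 11.10 and 12.34 between Neurons and NSCs, 10.63 between Astrocytes and NSCs, and 11.70 between Astrocytes and Neurons. Such folds take stepped values and do not grade sites finely. Whether they rest on few reads in the lower library was not tested, which holds for the comparison folds above and below.

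Between Neurons and NSCs, 7 of the 8 genes held 43 regions higher in Neurons, and 6 held 47 regions higher in NSCs. Over 23143 genes, 23.3% had a region higher in Neurons and 20.6% a region higher in NSCs. Among genes of at least 50 kb these shares were 58.3% and 52.2%. Regions higher in Neurons made up 47.8% of the 90 at the 8 genes (37.1% to 58.6%), against 53.8% of all regions. At Nrg3, 21 regions were higher in Neurons and 26 higher in NSCs, and that NSC number was the largest of any gene in its list. Relative to length, Nrg3 stood at rank 395 of the 5114 genes of at least 50 kb in that list. At Erbb4 the numbers were 13 and 14, and at Ntrk3 4 and 3.

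Between Astrocytes and NSCs, 6 of the 8 genes held 19 regions higher in Astrocytes, and 6 held 43 regions higher in NSCs. The background over all genes was 18.6% higher in Astrocytes and 22.3% higher in NSCs, and among genes of at least 50 kb 48.5% and 56.3%. Regions higher in Astrocytes made up 30.6% of the 62 (19.6% to 43.7%), against 40.3% of all regions, which lies inside the interval. Nrg3 had 9 regions higher in Astrocytes and 17 the reverse, Erbb4 5 and 15, Ntrk3 1 and 5, and Ntrk2 1 and 4. Egfr, with 2 and 1, and Fgfr2, with 1 and 0, had more regions higher in Astrocytes.

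Between Astrocytes and Neurons, 5 of the 8 genes held 18 regions higher in Astrocytes, and 5 held 48 regions higher in Neurons. The background over all genes was 15.3% and 25.6%, and among genes of at least 50 kb 41.2% and 61.7%. Regions higher in Astrocytes made up 27.3% of the 66 (17.0% to 39.6%), against 29.5% of all regions. Nrg3 had 10 regions higher in Astrocytes and 24 higher in Neurons, and Erbb4 5 and 18. Ntrk2 and Fgfr1 had no region in either direction, and neither did Nrg1. The share of regions higher in Neurons at the 8 genes is thus near that of the whole comparison.

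**Figure D5:**
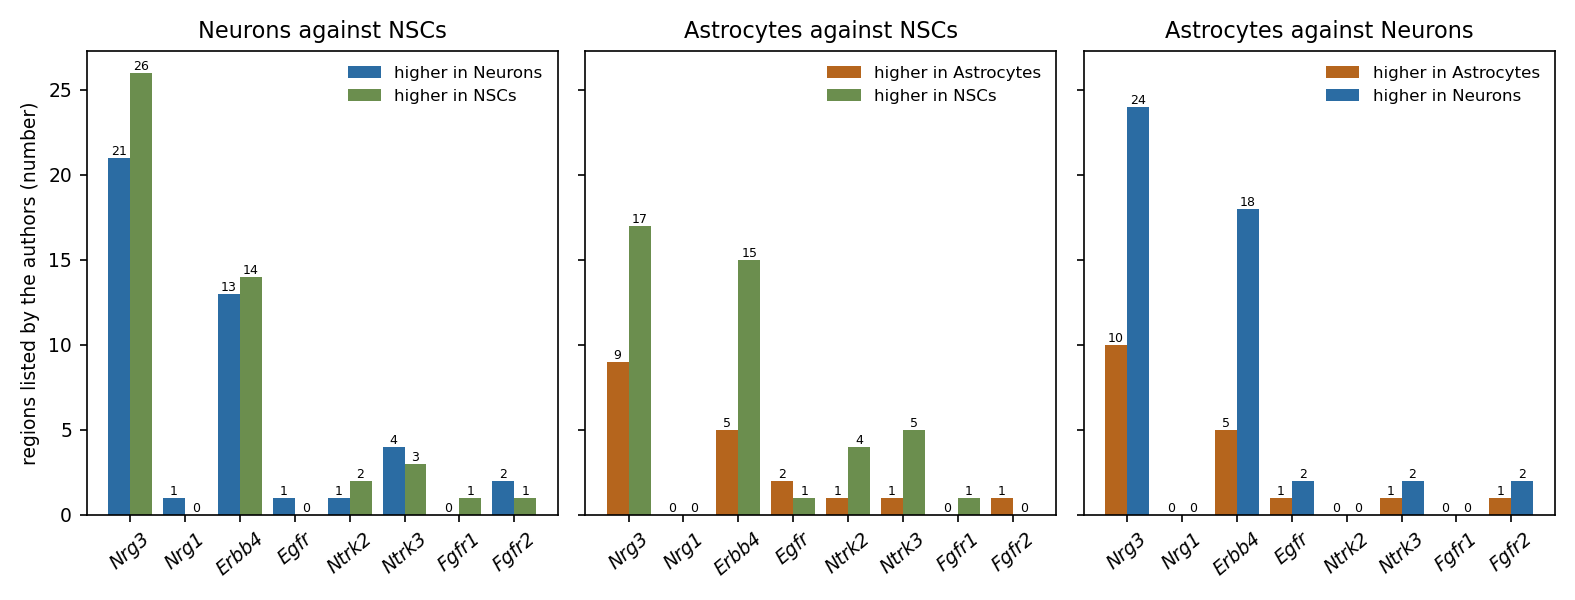
Number of regions at each gene in the authors' 6 comparison lists, for Neurons against NSCs, Astrocytes against NSCs, and Astrocytes against Neurons. Nrg3 and Erbb4 hold most of the 8 genes' regions in each list, and in the 2 panels with Astrocytes their bars for Astrocytes, 9 and 5 against NSCs and 10 and 5 against Neurons, are the lower ones.

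Merged over the 6 lists, the regions formed 153 locations, of which 88 were in 1 list and 65 in 2. At 21 locations NSCs were listed above both other cell types, at 19 Neurons were, and at 6 Astrocytes were. Astrocytes and Neurons were both above NSCs at 5, Astrocytes and NSCs both above Neurons at 8, and Neurons and NSCs both above Astrocytes at 6. No location was higher than NSCs in 1 of the other cell types and lower in the other. Of the 153, 30 overlapped no peak over input in any cell type. None of these patterns was counted over all genes, so they cannot be called particular to the 8. Over all genes too, fewer regions were listed as higher in Astrocytes, 21671 over NSCs and 16599 over Neurons. The reverse lists held 32105 and 39716.

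Locations with NSCs above both others were 11 at Nrg3, 5 at Erbb4, 2 each at Ntrk2 and Ntrk3, and 1 at Fgfr1. At Nrg3, chr16:16590534-16591059 was higher in NSCs by 18.13-fold over Neurons and 7.75-fold over Astrocytes. At Erbb4, chr9:75277939-75278537 was higher by 14.58-fold over Neurons and 6.46-fold over Astrocytes, and chr9:75933055-75933443 by 7.36-fold and 18.60-fold. At Ntrk3, chr1:140005872-140006111 was higher by 12.34-fold over Neurons and 11.64-fold over Astrocytes. These intervals had a peak over input in NSCs and in neither other cell type.

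Locations with Neurons above both others were 11 at Nrg3, 5 at Erbb4, and 1 each at Ntrk3, Egfr and Fgfr2. Erbb4 at chr9:75037595-75037821 was higher in Neurons by 17.27-fold over NSCs and 12.65-fold over Astrocytes. Nrg3 at chr16:16808691-16809054 was higher by 16.04-fold over NSCs and 10.33-fold over Astrocytes, and this interval lies in the 177 kb stretch without an Astrocytes peak. Nrg3 at chr16:16354711-16355497 had folds over input of 11.84 in Astrocytes, 35.76 in Neurons and 15.07 in NSCs. The deposited tables list it as higher in Neurons by 7.34-fold over NSCs and 6.99-fold over Astrocytes. Egfr at chr14:100029060-100029390 was higher in Neurons by 12.34-fold over NSCs and 11.70-fold over Astrocytes. Fgfr2 at chr1:200681823-200682276 was higher by 14.81-fold over NSCs and 15.60-fold over Astrocytes, although no cell type had a peak over input there.

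Locations with Astrocytes above both others were 3 at Nrg3 and 1 each at Ntrk3, Erbb4 and Egfr. Erbb4 at chr9:75473334-75473699 was higher in Astrocytes by 11.96-fold over NSCs and 11.70-fold over Neurons. Egfr at chr14:100031350-100031745 was higher by 10.63-fold over NSCs and 10.40-fold over Neurons. Ntrk3 at chr1:140167165-140167772 was higher by 4.74-fold over NSCs and 4.20-fold over Neurons. Nrg3 at chr16:16392148-16392594 was higher by 12.21-fold over NSCs and 11.55-fold over Neurons, with no peak over input in any cell type.

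Erbb4 also held sites where Astrocytes were the low library. At chr9:75715002-75715559, Neurons were higher than Astrocytes by 15.77-fold, with a score of 197.23, and NSCs were higher than Astrocytes by 14.87-fold, with a score of 108.94. At chr9:76034447-76034837 the deposited folds were 12.80 for Neurons over Astrocytes and 17.83 for NSCs over Astrocytes, with scores of 88.77 and 174.42. Both intervals had a peak in Neurons and in NSCs and none in Astrocytes. At Egfr, an interval at chr14:100067912-100068235 was higher in Neurons than in Astrocytes by 14.30-fold, and another at chr14:100084787-100085148 was higher in NSCs than in Astrocytes by 15.94-fold, without an NSC peak over input at that place.

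In some of the deposited lists a gene's region of largest fold lay elsewhere. For Nrg3 it was chr16:16692097-16692539, higher in NSCs than in Astrocytes by 14.50-fold without a peak over input in any cell type, and chr16:16077165-16077601, higher in Neurons than in Astrocytes by 15.60-fold with a Neurons peak. The list of regions higher in Astrocytes than in Neurons, had its Nrg3 maximum of 13.00-fold at chr16:15861403-15861796. That interval was also higher in NSCs than in Neurons, by 11.10-fold, and had peaks in Astrocytes and NSCs. For Erbb4, chr9:75140623-75141083 was higher in Astrocytes than in NSCs by 12.21-fold, the same maximum as that of Nrg3 in that list.

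For Ntrk3, chr1:140202119-140202495 was higher in Neurons than in NSCs by 8.98-fold, and chr1:140011660-140012050 was higher in NSCs than in Astrocytes by 12.93-fold. Its interval chr1:140014211-140014669 was 9.53-fold higher in Neurons and 6.73-fold higher in NSCs, each over Astrocytes, which had no peak there. For Egfr, chr14:100026673-100027007 was higher in Astrocytes than in NSCs by 11.96-fold, and Fgfr2 had a region of the same fold in that list at chr1:200601970-200602438. Both had an Astrocytes peak, and neither other cell type had one.

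The other genes of these pathways were taken as 4 lists with 74 genes in all, and at least 1 peak was found at 46 of them in Astrocytes (62.2%), 49 in Neurons (66.2%) and 46 in NSCs (62.2%). These shares lie above the 39.5%, 42.3% and 39.3% of all genes. Of the 40 pathway genes of at least 50 kb, 85.0% had a peak in Astrocytes, 87.5% in Neurons and 82.5% in NSCs, near the 80.8%, 82.9% and 80.7% of all genes of that length. Of 12 other neurotrophin pathway genes, 9 had a peak in Astrocytes, 8 in Neurons and 7 in NSCs. Of 17 neuregulin and EGF genes these were 11, 13 and 11, of 24 FGF genes 12, 16 and 13, and of 21 shared signal transducers 14, 12 and 15, in the same order. In the comparison lists, 34 of the 74 had a region higher in Neurons than in NSCs and 21 the reverse, 24 higher in Astrocytes than in NSCs and 27 the reverse, and 21 higher in Astrocytes than in Neurons and 30 the reverse. As shares of the 74 these were 45.9% and 28.4%, 32.4% and 36.5%, and 28.4% and 40.5%, against 23.3% and 20.6%, 18.6% and 22.3%, and 15.3% and 25.6% of all genes. Among the 40 longer ones they were 67.5% and 52.5%, 52.5% and 60.0%, and 45.0% and 60.0%, against 58.3% and 52.2%, 48.5% and 56.3%, and 41.2% and 61.7% of all genes of at least 50 kb.

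The genes with the most peaks in these lists were Sorcs2, a sortilin-family co-receptor of neurotrophins, with 16, 19 and 18 peaks in Astrocytes, Neurons and NSCs, and Shc3, a neuronal adaptor, with 13, 12 and 10. Fgf12, an intracellular FGF-family protein, had 13, 11 and 8, with largest folds of 100.52, 79.68 and 84.00. Fgf2, a mitogen of neural stem cells, had 3, 6 and 5 peaks with largest folds of 64.29, 62.43 and 100.66. Nrg2 had 9, 10 and 10 peaks, and Tgfa, an Egfr ligand, 6, 6 and 8. Of the transducers, the adaptor gene Gab2 had 7, 11 and 11.

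The related receptors were mostly short genes with few peaks. Ngfr, the low-affinity neurotrophin receptor, had 1 peak in Astrocytes, 1 in Neurons and 2 in NSCs, with largest folds of 30.74, 45.75 and 32.91, and 1 of the NSC peaks was in its promoter. Erbb2, the co-receptor of Erbb4, had 2 peaks in each cell type and a promoter region higher in NSCs than in Astrocytes by 6.12-fold. Sort1 had 4, 3 and 4 peaks in Astrocytes, Neurons and NSCs, and Fgfr4 had 2, 1 and 2 and a region 8.62-fold higher in Astrocytes than in Neurons. Erbb3, Fgfr3 and Fgfrl1 had no peak. Erbb3 had a region 9.10-fold higher in Neurons than in Astrocytes, and Fgfr3 regions higher in Neurons by 9.87-fold over NSCs and 8.37-fold over Astrocytes.

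For 7 of the 8 genes, the protein-coding gene most alike in its numbers over the 9 lists is given here, found as the smallest sum of absolute differences. For Nrg3 this was Gpc5, with 55 peaks in Astrocytes, 65 in Neurons and 58 in NSCs and a summed difference of 37. For Erbb4 it was Malrd1, with 40, 47 and 47 peaks and a difference of 19, and for Ntrk3 Zcwpw2, with 11, 15 and 16 peaks and a difference of 9. Ntrk2 was nearest to Adgrf4, at a difference of 3, and Fgfr2 to 3 genes at a difference of 2, of which Col18a1 is nearest in length. Fgfr1 and Nrg1 matched other genes exactly, 34 genes for Fgfr1, of which Sec31a is nearest in length, and 99 for Nrg1, of which Nrcam is nearest in length. The pattern of Fgfr1 and of Nrg1 is therefore a common one for genes with few regions. Genes alike in numbers were not always alike in length. Sec31a has 54.9 kb against 55.2 kb for Fgfr1, but Nrcam has 296 kb against 1050 kb for Nrg1. Adgrf4 has 31.2 kb against 315 kb for Ntrk2, and Zcwpw2 144 kb against 387 kb for Ntrk3.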

How the data were processed

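DNA was sonicated, ligated to adapters, denatured and enriched with the antibody, per the labels' protocols. Reads were aligned with BWA, per the submitters' processing notes. No source used here names the build, the filters or the peak caller's version. Read counts per library, and the percent of reads mapped uniquely, are those of a deposited mapping table. In the deposited lists, the authors' score is 10 times −log10 p, and the fold is a ratio of a library to its input or to another library. The authors' Astrocytes list is named like the other input-based lists. The 1 row of that table without a sample was not used.

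The 8 genes, the pathway lists and the tests were chosen with earlier results of these data known. Rows were matched by symbol, and 6 lines whose number of columns differed from that of the header line were skipped. Named were the 8 genes, related receptors, the 2 pathway genes with the most peaks per list, the nearest gene by numbers over 9 lists, and, for each of the 8 genes, exonic regions and regions of the largest fold. A few genes that this rule takes are not reported here. A location was called above both other cell types where it overlapped a region of both lists in which that cell type is higher. Gene lengths came from RefSeq GRCr8, which matched all 8 genes and all 74 pathway genes. Shares have exact Clopper-Pearson 95% intervals, which cover counting error only and take each peak or region as independent. Alternatives were a score of at least 100, the list's median fold, gene body columns only, overlap over 50% of a peak, other gene extents, and leaving out Nrg3. Functions were checked on simulated data in Python 3.11.15 with pandas 2.3.3 and scipy 1.17.1.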

Additional observations from a re-analysis of the deposited data

Results flagged for a closer look

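Around Nrg1, the deposited lists hold peaks that none of the gene counts above uses. Between Wrn and Fut10 there were 85 peaks without a gene name in Astrocytes, 117 in Neurons and 76 in NSCs, against 0, 1 and 0 peaks named for Nrg1 itself. They are listed here because they are signal over input outside the gene counts. Such peaks are common: they made up 61.2% of all peaks in Astrocytes, 61.4% in Neurons and 62.2% in NSCs. Around Nrg3, between Ghitm and Tspan14, there were 80 in Astrocytes, 95 in Neurons and 94 in NSCs. Around Erbb4, between Cps1 and Ikzf2, these were 58, 55 and 59, and around Ntrk3, between Agbl1 and Mrps11, 52, 85 and 72. In the comparison lists, the gap between Wrn and Fut10 held 32 unnamed regions higher in Neurons than in NSCs and 14 the reverse. It held 18 higher in Astrocytes than in NSCs and 27 the reverse. Against Neurons, 11 were higher in Astrocytes and 33 the reverse. How many of them lie inside Nrg1 was not tested, since the files name no genome build.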

How the results depend on the processing

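No paired analysis was possible because each group has 1 sample. Counting gene body columns alone, asking for overlap over 50% of a peak, or leaving out Nrg3 from the direction shares moved none of the summary values beyond 1.5 times or their interval. With a score of at least 100, peaks at the 8 genes were 41 in Astrocytes, 49 in Neurons and 54 in NSCs, and 4 genes kept a peak in Astrocytes. Regions were then 2 higher in Neurons than in NSCs (2 genes) and 6 the reverse (3 genes), 1 higher in Astrocytes than in NSCs (1 gene) and 5 the reverse (2 genes), and 1 higher in Astrocytes than in Neurons (1 gene) and 3 the reverse (2 genes). Regions higher in Neurons made up 25.0% of those against NSCs, and regions higher in Astrocytes 16.7%. The share of peaks found in both other cell types was 51.2% in Astrocytes and 42.9% in Neurons. With the list's median fold as minimum, peaks were 44 in Astrocytes (4 genes), 89 in Neurons and 68 in NSCs, and regions 23 higher in Neurons than in NSCs and 30 the reverse, 10 higher in Astrocytes than in NSCs and 24 the reverse, and 9 higher in Astrocytes than in Neurons. These minimums remove peaks by construction. The largest extent the deposited annotation allows was also used as gene length, an alternative chosen after seeing the data. Nrg1 then had 0.927 peaks per 100 kb in Neurons, and Ntrk2 2.03 in Astrocytes, 4.07 in Neurons and 5.42 in NSCs. Fgfr1 had 0.640 in each cell type, below the lower quartiles of 1.14, 1.39 and 1.11, which use GRCr8 lengths for every gene. With 1 library per cell type, differences between cells and between preparations cannot be told apart, and the 1 Nrg1 peak and the 3 Fgfr1 peaks have scores of 53.24 to 62.95, against the minimum of 50.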
